A study of Mus musculus with 3 samples.

Results

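The genes examined were the cytokine and interleukin genes of the mouse with their receptors, in the accessible chromatin of MEL cells, an immortalized erythroleukemia line of red cell precursors. Members were the protein-coding genes of the GENCODE M21 basic annotation whose symbol is Il followed by a digit, together with Csf1, Csf2, Csf3, Csf2ra, Csf2rb, Csf2rb2, Epo, Thpo, Kitl and Flt3l, and without Il7r. The rule found 91 of 21851 protein-coding genes, of which 46 encode ligands, 43 encode receptors or receptor chains, and 2 (Il18bp and Il4i1) encode neither. Membership came from the gene symbol alone, although the rule was set with earlier results of these data known.

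DNase-seq cuts chromatin with DNase I, and the cut ends collect where DNA is accessible, as at promoters and enhancers. The study had 3 libraries of 1 cell line in 1 condition: biological replicate 2 had 1 library and biological replicate 1 had 2, whose regions the authors called on the merged alignment. No treatment, genotype change or second cell type was included, and the labels give no age or sex for the line's donor. Each biological replicate therefore has 1 list of peaks, so there is no comparison of conditions and no test between samples; p-values are not given, and every interval covers counting error over genes alone.

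The replicate 1 list held 281600 peaks with a median deposited score of 73, and the replicate 2 list held 89046 peaks with a median of 32. Read depth is unknown, and the lists differ in length, so scores are read only within a list. Where 2 scores or counts are joined below, the replicate 1 list comes before the replicate 2 list. The line's labelled identity was checked against markers, beside the 58.3% and 49.4% of all protein-coding genes with a promoter peak. Of 14 erythroid markers 13 had a promoter peak in the replicate 1 list, and 10 did so in the replicate 2 list. Gata1 had 141 and 71 and Klf1 had 140 and 84. Slc4a1 had none in either list, and Alas2 (85), Hbb-bs (103) and Hba-a1 (71) had one in the replicate 1 list alone. Among 12 T and NK cell markers the counts were 5 and 0, among 5 B cell markers 2 and 0, among 6 mast cell and basophil markers 2 and 1, among 6 stroma markers 5 and 3, and among 8 macrophage and granulocyte markers 6 and 5. Of the last group, Cd68 (150 and 109) and Fcgr1 (150 and 104) scored above Gata1 and Klf1, as did the erythroid marker Epor (149 and 106). Elane and Ly6g had no promoter peak in either list.

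Cytokines are secreted proteins that carry signals between cells, above all between blood and immune cells. Most interleukins and colony-stimulating factors bind receptors without enzyme activity of their own, which pass the signal through JAK kinases and STAT factors, while the IL-1 and IL-17 families signal through adaptors that activate NF-kB. In the red cell lineage erythropoietin and stem cell factor (the product of Kitl) sustain the precursors, and they reach them from other cells, chiefly of the kidney and the marrow stroma.

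Receptor genes carried promoter peaks more often than ligand genes in both lists. Peaks whose centre lay within 1000 bp of any annotated start of a gene were taken as its promoter peaks. In the replicate 1 list 20 of 46 ligand genes had one (43.5%, Wilson 95% interval 30.2 to 57.8%) and 29 of 43 receptor genes (67.4%, 52.5 to 79.5%). In the replicate 2 list 12 ligand genes (26.1%, 15.6 to 40.3%) and 19 receptor genes (44.2%, 30.4 to 58.9%) had one. The intervals of both classes overlap in each list, so the order is a description of these lists.

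Over all members 51 of 91 had a promoter peak in the replicate 1 list (56%, 45.8 to 65.8%), against 58.3% of all protein-coding genes. In the replicate 2 list 32 of 91 had one (35.2%, 26.1 to 45.4%), against 49.4% of all genes. All 32 also had one in the replicate 1 list, so 32 members had a peak in both lists, against 49.4% of all genes in both lists. The members' share was thus near that of all genes in the longer list and below it in the shorter one.

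Members with a promoter peak had lower scores than genes in general. Medians were 120 and 53 in the replicate 1 and replicate 2 lists, against 139 and 63 for all genes with a promoter peak. Of the 32 members with a replicate 2 peak, 8 scored above the all-gene median of 63: Il6 among the ligands, 6 receptor genes and Il4i1. Ligands had medians of 101.5 and 53 in the replicate 1 and replicate 2 lists and receptors 123 and 48, so the order of the classes by score was not the same in both.

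**Figure D1:**
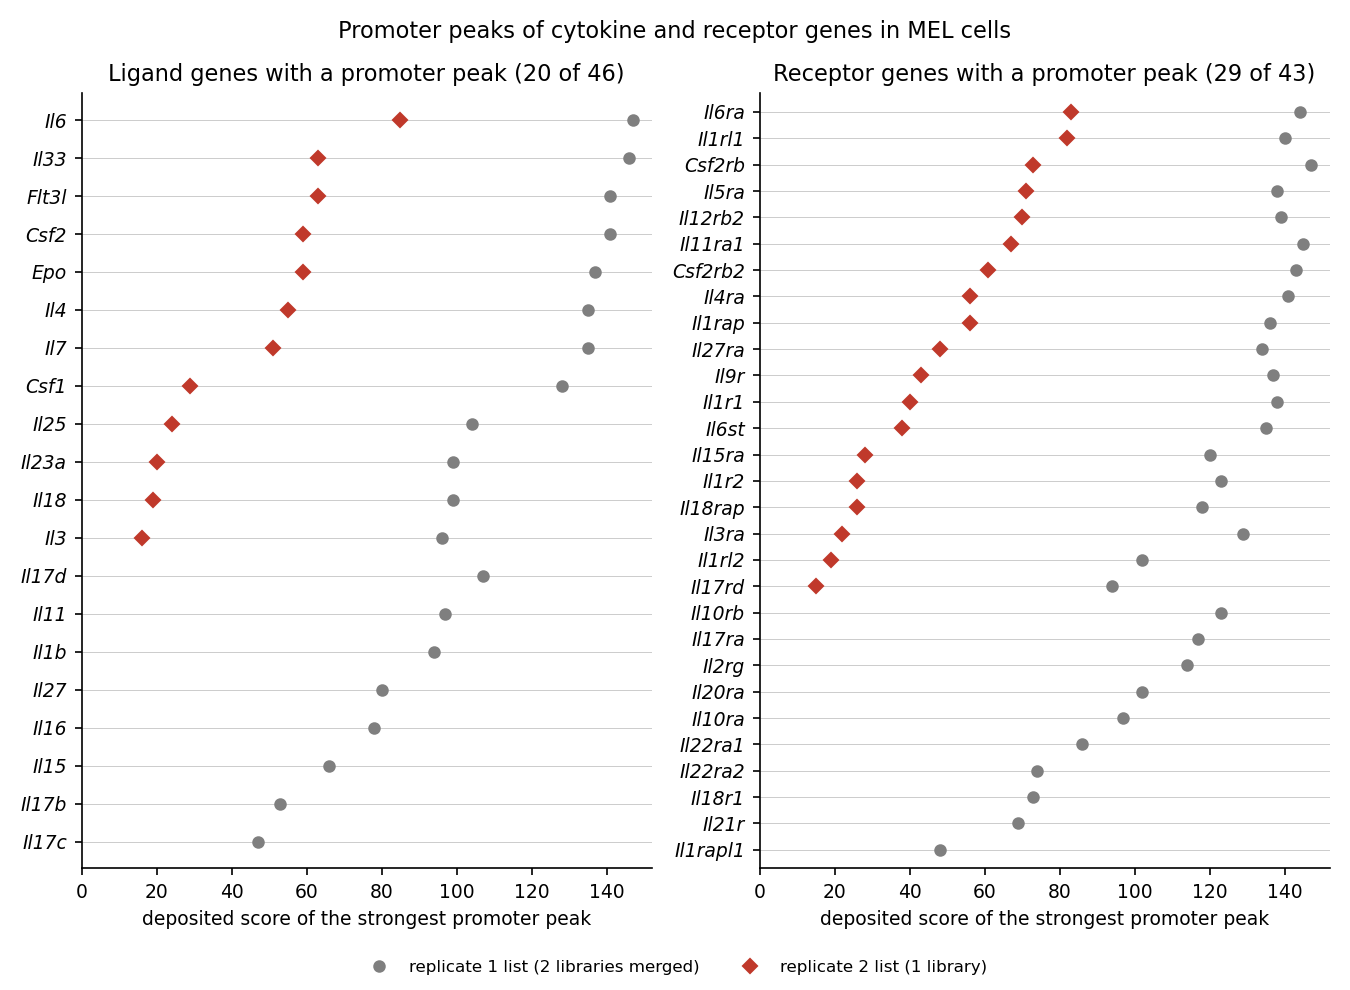
Deposited score (horizontal axis, no unit, 1 to 150) of the strongest promoter peak of each gene, for the 20 ligand genes and 29 receptor genes with one; grey circles are the replicate 1 list and red diamonds the replicate 2 list, each 1 value per gene. Genes with a replicate 2 peak fill the upper 12 rows of the ligand panel and the upper 19 of the receptor panel, and Il6 (147 and 85) and Il6ra (144 and 83) head them.

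Promoter sequence differs between these genes and the genome at large. CpG content was measured as observed over expected CpG within 500 bp of the main start, that of the transcript ranked first by the annotation's APPRIS tags. Its median was 0.26 over the members, 0.24 over ligands and 0.28 over receptors, against 0.56 over all genes. With all genes divided into 5 classes of equal size by CpG content, 29.7% of members fell in class 1, the lowest, and 44% in class 2.

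Among genes of the lowest CpG content at the main start, class 1, members had promoter peaks at a higher share than genes at large. In class 2 this held for receptors and not for ligands. A peak at any start was counted, so it need not lie at the sequence whose CpG content was measured. Among class 1 members, Il18 and Il5ra had promoter peaks at other starts only in both lists. Il16 and Il18bp did so in the replicate 1 list, and Il4i1 in the replicate 2 list. In class 1, promoter peaks were found at 14 of 27 members in the replicate 1 list, and at 7 members in the replicate 2 list (51.9% and 25.9%), against 23% and 11.4% of all genes there. In class 2 the counts were 19 and 12 of 40 (47.5% and 30%), against 38.9% and 25.1%. In class 3 they were 12 and 9 of 17 (70.6% and 52.9%), against 63.6% and 55%. Classes 4 and 5 held 3 and 4 members, too few to read a share from. Ligands made up 14 and 24 of the members in classes 1 and 2, and receptors 11 and 16. By role, 42.9% and 21.4% of the ligands in class 1 had a promoter peak in the replicate 1 and replicate 2 lists, and 54.5% and 27.3% of the receptors. In class 2 the shares were 37.5% and 20.8% for ligands and 62.5% and 43.8% for receptors. The ligands' shares there lay below the 38.9% and 25.1% of all genes. In class 3, which held 6 ligands and 11 receptors, they were 66.7% and 66.7% for ligands and 72.7% and 45.5% for receptors. Receptors thus had the higher share in classes 1 and 2 of both lists and in class 3 of the replicate 1 list, and ligands had it in class 3 of the replicate 2 list.

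**Figure D2:**
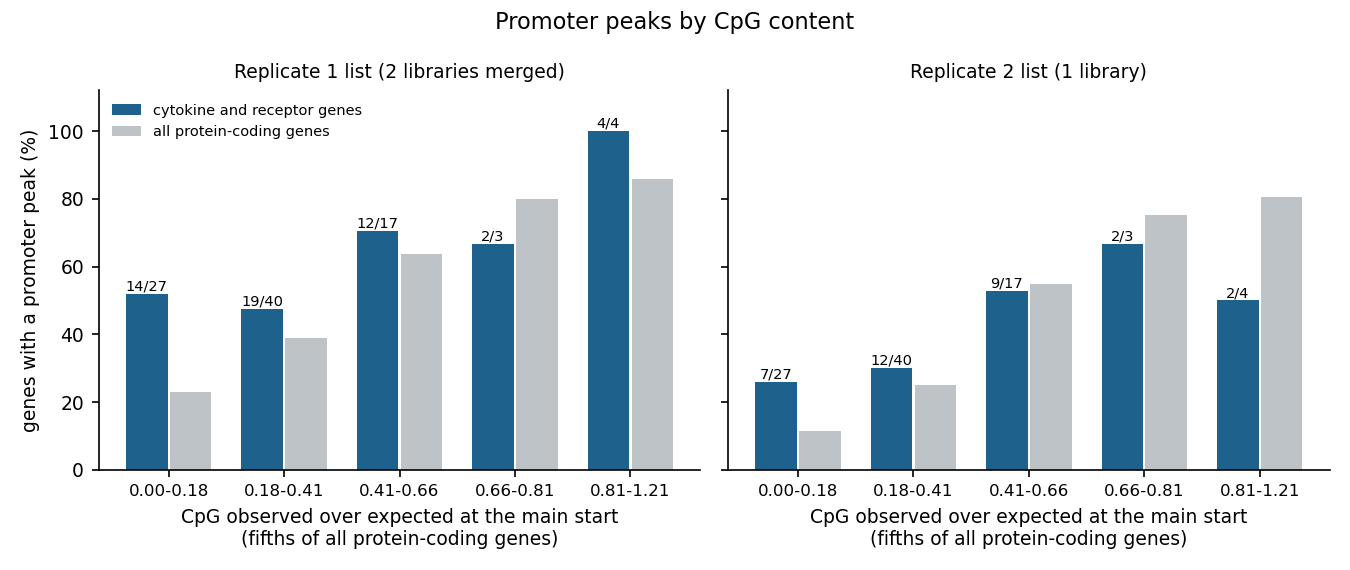
Share of genes with a promoter peak (vertical axis, percent) by class of CpG observed over expected (5 classes of equal size over all genes), for the members (blue, with the count over the number of members above each bar) and all protein-coding genes (grey), in each list. In class 1 the members' bars stand at 51.9% and 25.9%, above the 23% and 11.4% of all genes, and the highest classes hold only 3 and 4 members. The class is set by the main start, while a peak at any start counts.

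Among the ligand genes, Il6 had the strongest promoter peak in both lists. It encodes interleukin-6, an inflammatory cytokine that also acts on blood progenitors. Its promoter peak scored 147 and 85 in the replicate 1 and replicate 2 lists, and 81.7% of genes with a replicate 2 promoter peak scored the same or lower. The replicate 2 peak lies at chr5:30013176-30013325, within the gene, 70 bp upstream of an annotated internal start and 137 bp past the main one. A further peak of 142 and 69 stood 39.3 kb upstream. The window of Il6 from 50 kb before to 50 kb after the gene record held 35 and 15 peaks.

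Il33 encodes an alarmin released by damaged barrier cells, and its promoter peak scored 146 and 63 in the replicate 1 and replicate 2 lists. The peak lies in an intron, 281 bp past the main start in the replicate 2 list, and a start 20.7 kb upstream had a peak of its own, of 124 and 39. Il33 sits in a stretch of chromosome 19, from 29 to 30 Mb, where all 141 replicate 2 peaks have a median score of 42 against 32 over the whole list, and 350 replicate 1 peaks a median of 100.5 against 73. Its peak is also the only one among ligand promoter peaks of the replicate 2 list with a GATA match (AGATAA on either strand, the core bound by GATA factors). It is printed for that reason, in mm10 (GRCm38), chr19:29945996-29946145, plus strand, with the match in capitals as its reverse complement:
Il33: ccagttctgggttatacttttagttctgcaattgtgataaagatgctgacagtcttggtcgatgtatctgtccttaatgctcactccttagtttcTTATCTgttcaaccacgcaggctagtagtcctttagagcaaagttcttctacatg

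The growth factors of the blood lineage divided. Csf2, the gene of GM-CSF, had a promoter peak of 141 and 59 in the replicate 1 and replicate 2 lists, at 316 and 296 bp past the start. Flt3l, whose product drives dendritic cell and lymphoid progenitors, had 141 and 63, and Csf1, the gene of the macrophage growth factor M-CSF, had 128 and 29. Il3, which encodes a growth factor of multipotent progenitors and mast cells, had 96 and 16, low in both lists. Csf3 (G-CSF), Thpo (thrombopoietin) and Kitl had no promoter peak in either list. Kitl also had 7 peaks in its window in the replicate 1 list and none in the replicate 2 list, although its CpG content of 0.75 is high for this group.

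Epo, the gene of erythropoietin itself, counted as having a promoter peak only through a distant start. That start, of transcript Epo-202, lies 47.4 kb upstream of the main start. Its strongest peak in the replicate 1 list scored 137 and stood 29 bp upstream of that start, and the strongest in the replicate 2 list scored 59 and stood 389 bp upstream. These strongest peaks do not overlap, whereas at the other 31 members with a promoter peak in both lists the strongest peaks of both lists do. Both sites nevertheless had a peak in both lists, with close scores. The site 29 bp upstream had 137 and 57, and the site 389 bp upstream had 136 and 59. The closest protein-coding start to each is that of Gnb2, a G protein subunit gene. No peak was centred within 1000 bp of the main start of Epo in either list. The 49 and 21 peaks of its window lie in a gene-rich stretch, and the strongest in the replicate 2 list, of 76, stood 7 bp from the start of Pop7. Of the distal peaks, those over 1000 bp from any protein-coding start, 2 in the replicate 1 list and none in the replicate 2 list had Epo as the closest gene.

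The other 5 ligand genes with a peak in both lists belong to the T helper, lymphoid and barrier cytokines. Il4, the type 2 helper cytokine, had 135 and 55, with the peak at the start of an internal transcript 1278 bp past the main start. Il7, a lymphocyte survival factor made by stroma, had 135 and 51, at 36 and 16 bp past its start. Il25, an IL-17 family ligand of barrier tissue, had 104 and 24. Il23a, a subunit of interleukin-23, had 99 and 20. Il18, an IL-1 family ligand that induces interferon gamma, had 99 and 19, at a start 9.9 kb upstream of the main one. Il4 and Il7 scored below Csf2 and above Csf1 in both lists, and the last 3 scored below Csf1.

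A promoter peak in the replicate 1 list alone was seen for 8 ligand genes: Il17d (107), Il11 (97), Il1b (94), Il27 (80), Il16 (78), Il15 (66), Il17b and Il17c. No ligand gene had a promoter peak in the replicate 2 list alone. The 26 ligand genes with none in either list were Csf3, Il10, Il12a, Il12b, Il13, Il17a, Il17f, Il19, Il1a, Il1f10, Il1f5, Il1f6, Il1f8, Il1f9, Il1rn, Il2, Il20, Il21, Il22, Il24, Il31, Il34, Il5, Il9, Kitl and Thpo. They include the T cell products Il2, Il5, Il9, Il13, Il17a and Il21, and all 4 members of the Il24, Il20, Il19 and Il10 cluster on chromosome 1. T cell products were not all without a peak, as Il4, the type 2 helper cytokine, had 135 and 55. Csf2 (141 and 59) and Il3 (96 and 16) likewise had a promoter peak in both lists.

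Among receptor genes, Il6ra (83), Il1rl1 (82) and Csf2rb (73) had the strongest promoter peaks in the replicate 2 list, and Csf2rb (147) and Il11ra1 (145) in the replicate 1 list. Il6ra, the ligand-binding chain for interleukin-6, had a promoter peak of 144 and 83 in the replicate 1 and replicate 2 lists, 35 bp upstream of a start. Its partner Il6st encodes gp130, the chain that carries the signal of the interleukin-6 family, and had 135 and 38, at a start 10.9 kb upstream of the main one. The window of Il6ra held 67 and 32 peaks, and 32 was the highest count of any member in the replicate 2 list. An intron peak of Il6ra, 1.75 kb past its start, outscored its promoter at 148 and 106, and a further intron peak at 29.3 kb scored 148 and 97. A peak of 150 in the replicate 1 list, the highest score the list holds, lay 25.4 kb into the same gene.

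The intron peak nearest to the start of Il6ra is printed because it held both an ETS/PU.1 match (GAGGAA) and a RUNX match (TGTGGT), cores bound by factors of the blood lineage. It lies at chr3:89911336-89911485 (GRCm38) and is given on the minus strand, that of the gene, with both matches in capitals:
Il6ra intron: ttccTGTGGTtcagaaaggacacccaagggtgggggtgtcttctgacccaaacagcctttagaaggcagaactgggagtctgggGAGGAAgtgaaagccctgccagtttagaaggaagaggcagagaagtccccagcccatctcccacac

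Csf2rb encodes the common beta chain of the receptors for GM-CSF, interleukin-3 and interleukin-5, and Csf2rb2 encodes the mouse beta chain specific to interleukin-3. Csf2rb had a promoter peak of 147 and 73 in the replicate 1 and replicate 2 lists, and Csf2rb2 had 143 and 61. Their main starts lie 20269 bp apart on chromosome 15, and 158 of the 200 bp upstream of each start are identical (79%). Of the 32-bp words within 1000 bp of the start, 72.5% were unique in the reference at Csf2rb and 88.3% at Csf2rb2. Reads from the words that are not unique may not be placed on the right gene. The pair also had 69 and 72 peaks in their windows in the replicate 1 list, of which Csf2rb2 had the most of any member; the windows overlap and together held 88 distinct peaks, and 22 in the replicate 2 list.

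Both beta chain promoters and that of Il12rb2, a chain of the interleukin-12 receptor, held a STAT match (TTCNNNGAA), and these are the only receptor promoter peaks of the replicate 2 list that did. Il12rb2 had a promoter peak of 139 and 70 in the replicate 1 and replicate 2 lists. The stretches of the replicate 2 peaks outside annotated exons are printed in GRCm38, chr15:78325910-78325989 on the plus strand, chr15:78305722-78305805 on the minus strand and chr6:67376294-67376385 on the minus strand, with the STAT match in capitals:
Csf2rb: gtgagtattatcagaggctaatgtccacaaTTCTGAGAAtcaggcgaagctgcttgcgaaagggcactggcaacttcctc
Csf2rb2: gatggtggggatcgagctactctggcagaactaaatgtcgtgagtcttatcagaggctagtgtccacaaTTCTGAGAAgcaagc
Il12rb2: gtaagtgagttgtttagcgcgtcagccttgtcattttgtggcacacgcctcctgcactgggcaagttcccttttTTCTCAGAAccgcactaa
The match has the same letters in both beta chain genes, and that of Il12rb2 is their reverse complement.

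The ligand-binding alpha chains that join the common beta chain differed among themselves. Il5ra, the alpha chain for interleukin-5, had a promoter peak of 138 and 71 in the replicate 1 and replicate 2 lists, at a start 3928 bp upstream of the main one. Il3ra, the alpha chain for interleukin-3, had 129 and 22, 564 bp upstream of its start, and 2 peaks in its window in the replicate 2 list. Csf2ra, the alpha chain for GM-CSF, had none in the replicate 1 list or the replicate 2 list, although 99.6% of the 32-bp words at its promoter were unique. Its window nevertheless held 2 of the 4 highest-scoring distal peaks near any member in the replicate 2 list. They scored 149 and 110 at chr19:61265436-61265585, 37.1 kb upstream, and 147 and 106 at chr19:61244856-61245005, 16.5 kb upstream, the closest start being that of Csf2ra only for the second.

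Receptors of the IL-1 family came next. Il1rl1 encodes ST2, the receptor for interleukin-33, and is known in the mouse for an upstream promoter used in blood cells. It had a promoter peak of 140 and 82 in the replicate 1 and replicate 2 lists. That peak lies 159 bp upstream of a start 11.1 kb before the main start, and no peak was centred at the main start. The strongest replicate 1 promoter peak of Il1rl1, chr1:40429376-40429525, held no GATA match. The replicate 2 peak begins further upstream and is the only receptor promoter peak of that list with such a match. The sequence, shown for this match on the plus strand of GRCm38, chr1:40429336-40429485, has it in capitals:
Il1rl1: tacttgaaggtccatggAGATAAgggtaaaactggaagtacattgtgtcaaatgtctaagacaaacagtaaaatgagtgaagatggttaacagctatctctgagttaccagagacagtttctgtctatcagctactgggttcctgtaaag
Il1rap, the accessory chain that Il1rl1 and Il1r1 both need for signalling, had 136 and 56. Il1r1, the signalling receptor for interleukin-1, had 138 and 40, and Il1r2, a decoy receptor for it, had 123 and 26. Il18rap had 118 and 26 and Il1rl2 had 102 and 19.

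The remaining receptor genes with a promoter peak in both lists were Il11ra1 (145 and 67), Il4ra (141 and 56), Il27ra (134 and 48), Il9r (137 and 43), Il15ra (120 and 28) and Il17rd (94 and 15, at an internal start). Each binds the interleukin of its name except Il17rd, an IL-17 receptor relative. In the replicate 1 list alone peaks were found at 10 receptor genes: Il10rb (123), Il17ra (117), Il2rg (114), Il20ra (102), Il10ra (97), Il22ra1 (86), Il22ra2 (74), Il18r1 (73), Il21r (69) and Il1rapl1. The peak counted for Il2rg, the common gamma chain of the interleukin-2 receptor group, has the start of Gm20489 as its closest. The 14 receptor genes with none in either list were Csf2ra, Il11ra2, Il12rb1, Il13ra1, Il13ra2, Il17rb, Il17rc, Il17re, Il1rapl2, Il20rb, Il23r, Il2ra, Il2rb and Il31ra.

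Il4i1 and Il18bp, which are neither ligand nor receptor genes, completed the set. Il4i1, an amino acid oxidase gene, had 148 and 98 in the replicate 1 and replicate 2 lists, the highest promoter score of any member in both, but the closest start to that peak is that of Atf5, a transcription factor gene. Il18bp, whose product binds and blocks interleukin-18, had 60 in the replicate 1 list alone. Alternative starts mattered across the set: 25 of 91 members have more than 1 group of starts. Of the 51 members with a replicate 1 promoter peak, 42 had one at the main start, and of the 32 with a replicate 2 peak 24 did. The 8 others in the replicate 2 list were Epo, Il17rd, Il18, Il1rl1, Il4, Il4i1, Il5ra and Il6st.

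Peaks within 50 kb of the gene record were counted to look beyond promoters. The median was 26 and 7.5 per ligand gene and 33 and 11 per receptor gene in the replicate 1 and replicate 2 lists, against 28 and 9 over all genes. Ligand genes had a median length of 7.41 kb and receptor genes one of 30.1 kb, so receptor windows were wider. Per 100 kb of window the medians were 20.5 for ligands and 26 for receptors in the replicate 1 list, and 6.5 and 7.94 in that order in the replicate 2 list, against 20.6 and 6.78 over all genes. Receptor windows remained the denser on that scale, and ligand windows were close to the genome's median.

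**Figure D3:**
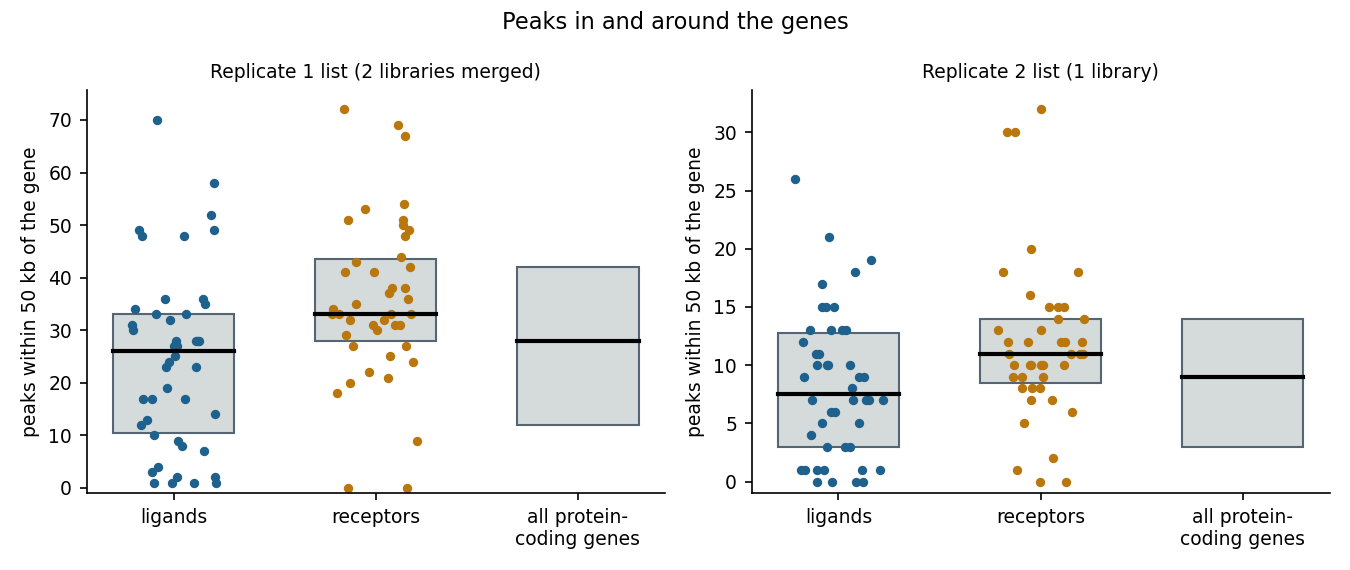
Peaks within 50 kb of each gene record (vertical axis, number of peaks) for ligand genes, receptor genes and all protein-coding genes; points are single genes, boxes span the lower to the upper quartile and the thick line is the median. Ligand medians of 26 and 7.5 stand below receptor medians of 33 and 11, while single genes of both classes reach from none or 1 peak to 70 and 72 in the replicate 1 list.

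After Csf2rb2 the members with the most peaks in the replicate 1 list were Flt3l (70), Csf2rb (69), Il6ra (67) and Csf2 (58). In the replicate 2 list, after Il6ra, they were Il12rb1 and Il1r1 (30 each), Flt3l (26) and Epo (21). Il12rb1, a chain shared by the interleukin-12 and interleukin-23 receptors, has no promoter peak, and the strongest peak of its window in the replicate 2 list, of 109, stood 11 bp from the start of Arrdc2. A count of peaks near a gene in a gene-rich stretch thus includes its neighbours' promoters.

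In the replicate 1 list 2 members had no peak within 50 kb (2.2%), against 6.07% of all genes. They were Il11ra2 and Il13ra2. In the replicate 2 list 6 members had none (6.59%), these and Il17a, Il1f6, Il1f9 and Kitl, against 13.7% of all genes. None of the 32-bp words at the Il11ra2 promoter is unique in the reference, so closed chromatin there cannot be told apart from reads that could not be placed, whereas 99.8% are unique at Il13ra2.

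Several genes with no replicate 2 promoter peak had strong distal peaks for which theirs was the closest protein-coding start. Of the 59 members without a promoter peak in the replicate 2 list, 42 had at least 1 such distal peak (71.2%), against 52.6% of all genes without one. Of the 32 with a promoter peak, 26 did (81.2%), against 76.7% of all genes with one. The median number per gene was 3 in both sets of members, against 1 and 2 in these sets of all genes. In the replicate 1 list the shares were 85% of members without a promoter peak, against 70.5% of all such genes, and 96.1% of members with one, against 93.8%. Beside the Csf2ra peak at 16.5 kb, the highest scores in the replicate 2 list were 149 and 95 at 5.24 kb upstream of Il10ra, a chain of the interleukin-10 receptor, and 145 and 90 at 25.9 kb upstream of Il22, a barrier cytokine. Il1b followed with 146 and 86 at 2.35 kb upstream and Il20ra with 149 and 85 at 20.6 kb upstream. Il2ra, the high-affinity chain for interleukin-2, and Il17ra both had 81. That of Il2ra stood 5.54 kb upstream, and that of Il17ra in an intron, 3.54 kb past the start. These 6 were chosen after their values were seen.

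The 91 members fall into 65 loci when overlapping windows are joined, and 15 loci hold more than 1 member and 41 members in all. In the IL-1 family 1 of the 2 ligand clusters was sparse, and the other was about as dense as the receptor cluster. The cluster of Il1f8, Il1f9, Il1f6, Il1f5, Il1f10 and Il1rn, the ligands of the interleukin-36 branch and the interleukin-1 receptor antagonist among them, has a window of 298.3 kb on chromosome 2, 50 kb to either side included, with 4 and 2 distinct peaks. No gene of the cluster had a promoter peak, and the highest scores were 76 and 14. The receptor cluster of Il1r2, Il1r1, Il1rl2, Il1rl1, Il18r1 and Il18rap has a window of 577.6 kb on chromosome 1 with 131 and 56 distinct peaks. There all 6 genes had a promoter peak in the replicate 1 list and all but 1 of them in the replicate 2 list, Il18r1 being the exception. Density was 1.34 and 0.67 peaks per 100 kb in the ligand cluster from Il1f8 to Il1rn and 22.7 and 9.69 in the receptor cluster. Il1a and Il1b, the genes of interleukin-1 itself, share a window of 171.5 kb elsewhere on chromosome 2 with 38 and 16 distinct peaks, or 22.2 and 9.33 per 100 kb, although Il1b alone had a promoter peak there and in the replicate 1 list only. Promoter sequence was at least partly repeated at Il1f8 (61.1% unique words) and Il1f10 (75.3%), and 98% or more unique at the other 4 genes from Il1f8 to Il1rn.

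**Figure D4:**
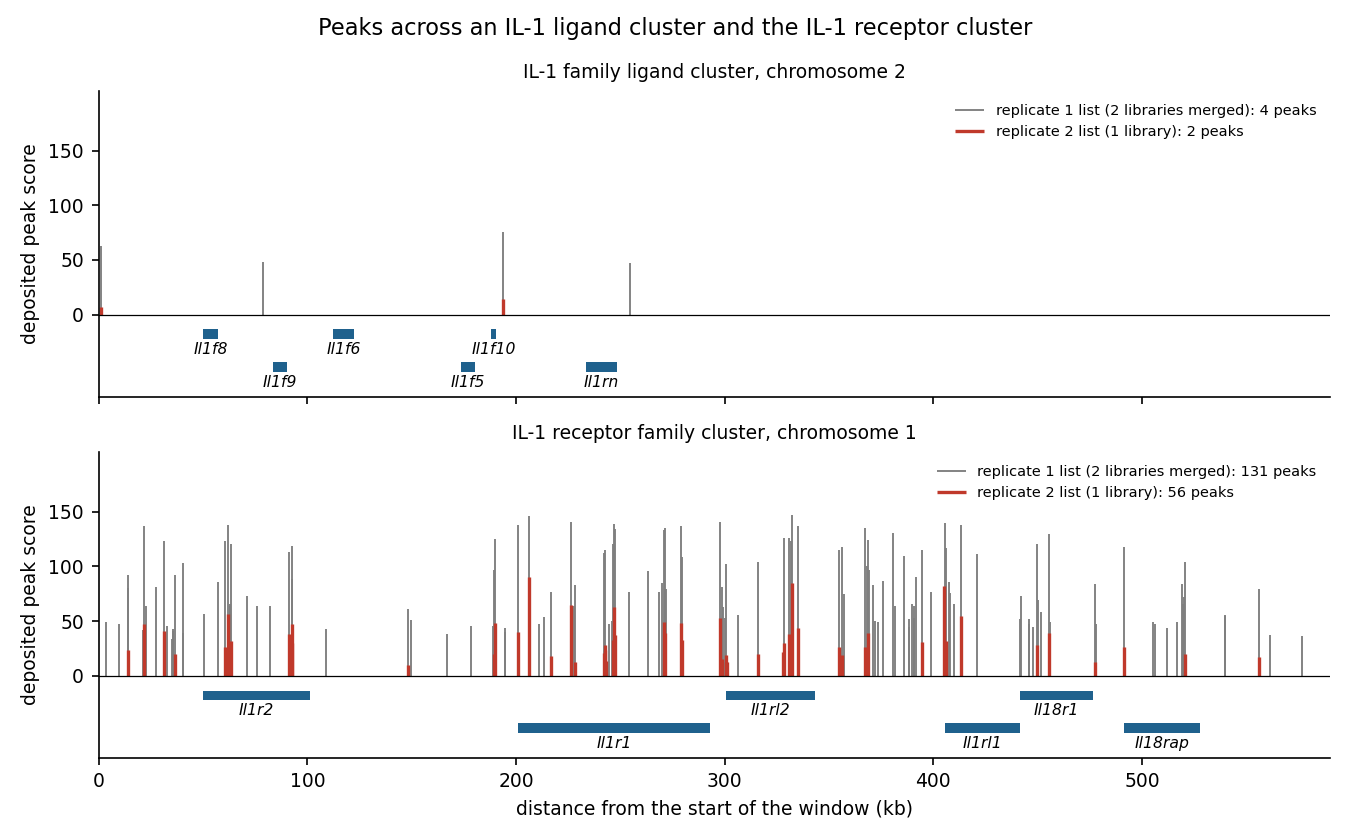
Peaks of both lists (vertical lines, height the deposited score) against distance from the start of each window (kb), with gene records as blue bars, for the ligand cluster from Il1f8 to Il1rn on chromosome 2 (above) and the IL-1 receptor cluster on chromosome 1 (below), on the same axes; the upper window ends at 298.3 kb. The ligand cluster shown has 4 and 2 peaks with scores up to 76 and 14, and the receptor cluster 131 and 56 with scores up to 147 and 90.

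Within the receptor cluster the strongest replicate 2 peaks lay in introns. A peak of 146 and 90 stood 5.47 kb into Il1r1 and one of 147 and 85 stood 31.5 kb into Il1rl2. The promoter peak of Il1rl1, at 140 and 82, came next.

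The type 2 cytokine cluster and its neighbour on chromosome 11 each formed a dense locus. Il4, Il13 and Il5 share a locus with 67 and 28 distinct peaks, or 30.2 and 12.6 per 100 kb. The strongest there in the replicate 1 list, of 147 and 68, lay downstream of Il13, 6.69 kb past its start. The strongest in the replicate 2 list, of 138 and 75, lay downstream of Il5, the eosinophil growth factor, 16.4 kb past its start. Csf2 and Il3 share a denser locus with 64 and 20 peaks, or 53.3 and 16.7 per 100 kb. Its strongest replicate 2 peak, of 149 and 95, lay downstream of Csf2, 48.1 kb past the Csf2 start. Of the clusters with no promoter peak, Il24, Il20, Il19 and Il10 had 38 and 17 peaks, and Il2 and Il21 had 23 and 9. A peak of 145 and 76 stood downstream of Il21, 28.4 kb past its start. Il17a and Il17f had 13 and 1, the single replicate 2 peak lying 79 bp from the start of Mcm3.

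Il9r lies beside the alpha-globin cluster on chromosome 11, and its window had 53 and 8 peaks. The strongest, of 149 and 97, stood 44 bp from the start of Snrnp25, and its own promoter peak scored 137 and 43.

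The highest-scoring distal peaks within 50 kb of a member in the replicate 2 list were near Il6ra and Csf2ra. The first scored 149 and 113 at chr3:89843196-89843345, 69.9 kb past the start of Il6ra, with She, an adaptor protein gene, as the closest start at 11.9 kb. It was followed by the Csf2ra peaks given above and the Il6ra intron peak printed above. The next score, 97, was shared by the further intron peak of Il6ra and by a peak 1.14 kb upstream of Flt3l. In the replicate 1 list the Il6ra peak of 150 was followed by distal peaks tied at 149 near Il22ra2, Il20ra, Csf2, Il17rd, Csf2ra, Il6ra, Flt3l and Il10ra.

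Short sequence motifs were counted in the 150 bp of the strongest promoter peak of each gene. Matches were exact letters on either strand for 10 motifs. The GATA motif was AGATAA. ETS/PU.1 factors were represented by GAGGAA, and RUNX factors by TGTGGT. The STAT motif was TTCNNNGAA, and the AP-1 motif was TGANTCA. The CRE element was TGACGTCA. For NF-kB the spelling GGGNNTTTC was searched, and beside it GGANNTTCC. NFAT was represented by GGAAAA, the KLF/SP family by GGGCGG and the E-box by CANNTG. The spellings of ETS/PU.1 and NFAT share a GGAA core and can overlap each other and those of STAT and NF-kB, so these counts are not separate. A match is a description of letters and says nothing of binding.

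GATA matches stood in 3 of 51 member promoter peaks of the replicate 1 list (5.88%), against 5.1% of all genes' promoter peaks. These were the peaks of Il22ra1, Il33 and Il9r. In the replicate 2 list they stood in 2 of 32 (6.25%), those of Il33 and Il1rl1 printed above, against 4.49%. STAT matches stood in 7 of 51 in the replicate 1 list (13.7%), against 3.64%. In the replicate 2 list they stood in 4 of 32 (12.5%), those of Csf2rb, Csf2rb2, Il12rb2 and Il4, against 3.59%. Both lists count Csf2rb and Csf2rb2, whose upstream sequences are 79% identical with the same match letters, so these matches are not separate. Several other motifs were also more frequent in members than in all genes in both lists. ETS/PU.1 matches stood in 29.4% against 20.4% in the replicate 1 list and 28.1% against 18.7% in the replicate 2 list. For RUNX the shares were 13.7% against 7.64%, and 18.8% against 7.06%. For the E-box they were 66.7% against 39%, and 65.6% against 38.9%, and for NFAT 17.6% against 9.75%, and 12.5% against 9.2%. The KLF/SP spelling, which holds a CpG, was less frequent in members, at 29.4% against 41.7% and 37.5% against 47.9%. NF-kB and AP-1 had a different order in each list. NF-kB matches stood in 3.92% of members against 4.74% of all genes in the replicate 1 list and in 6.25% against 4.57% in the replicate 2 list. AP-1 matches stood in 3.92% against 3.73% in the replicate 1 list, and in none of the 32 against 3.29% in the replicate 2 list. CRE matches stood in no member promoter peak of either list, against 2.25% and 2.94% of all genes. These promoter shares were not compared within classes of CpG content. In distal peaks the differences were small in percentage points. GATA matches stood in 14.3% of distal peaks in member windows against 13.9% of all distal peaks in the replicate 1 list. In the replicate 2 list they stood in 19.8% of 580 distal peaks in member windows against 18.2% of all. STAT matches stood in 5.86% against 4.57% there, and in 4.45% against 4.65% in the replicate 1 list. ETS/PU.1 matches were less frequent in member windows in both lists, at 29.9% against 31.4% and 35% against 35.9%. So were RUNX matches, at 15.8% against 16.5% and 16% against 17.5%. NFAT matches were more frequent, at 11.6% against 11% and 13.1% against 10.6%. E-box matches were too, at 59.2% against 57.3% and 59% against 56.2%. KLF/SP matches were also more frequent in member windows, at 4.71% against 3.79% and 7.76% against 6.08%, the reverse of their order in promoter peaks.

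Genes that work with these cytokines were taken as lists of partners. Of 12 receptor genes outside the rule, 8 and 7 had a promoter peak in the replicate 1 and replicate 2 lists, beside the 58.3% and 49.4% of all genes. Epor, the erythropoietin receptor gene, had 149 and 106, Crlf2, a chain of the thymic stromal lymphopoietin receptor, 148 and 78, Csf3r 142 and 66, Il7r 135 and 44, and Csf1r 122 and 32. Kit, Flt3, Lepr and Prlr had none in either list. For erythropoietin, the receptor gene thus had a promoter peak and the ligand gene had none at its main start, and for stem cell factor both Kit and Kitl lacked one.

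Of all protein-coding genes 49.4% had a promoter peak in both lists. The pathway lists that follow were not compared with genes of like CpG content. Of 11 JAK and STAT genes 10 had a promoter peak in both lists. Tyk2 (149 and 122), Stat3 (149 and 92), Stat6 (145 and 91) and Stat2 (145 and 86) had the highest scores of them in the replicate 2 list. Jak2, the kinase of the erythropoietin receptor, had 148 and 83. Stat4, the factor downstream of interleukin-12, had none. All 11 genes of SOCS proteins and other brakes had one in both lists, among them Cish (142 and 69), a STAT5 target, and Socs1 (144 and 73). In the IL-1 and IL-17 receptor pathway 9 of 10 genes had one in both lists, such as Irak4 (146 and 87) and Myd88 (147 and 67), and Sigirr, a brake on that pathway, had none. Of 10 NF-kB genes all had one in the replicate 1 list and all but 1 in the replicate 2 list, Nfkb1 (116) being in the replicate 1 list alone.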

How the data were processed

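The authors deposited peak and hotspot lists in mm10 coordinates, per the labels; the aligner, the caller and the read numbers are not given in the sources used here. Each deposited peak carries a score from 1 to 150 that the authors assigned; what it counts is not given. For hotspots the authors give −log10 q-values, by the convention of the format; only hotspot positions were used, in an alternative. Exact repeats were dropped (67 peaks of replicate 1, 7 of replicate 2), and chromosomes 1 to 19, X and Y were used. Peaks were set against GENCODE M21 basic starts and the RefSeq GRCm38 sequence, the same build, in Python 3.11.15 with numpy 2.4.6, scipy 1.17.1, pysam 0.24.0, numba 0.67.0 and matplotlib 3.10.9. Motif letters were read from that sequence, and printed stretches leave out annotated exons. The code was tested on simulated data.

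The members, their roles and the gene lists were chosen with earlier results of these data known. Named were all members with a replicate 2 promoter peak, those in replicate 1 alone (scores for the 10 highest), the blood growth factors and their receptors, members with the most or no peaks within 50 kb, those at the 5 strongest distal peaks, and shared loci; other names come from the pathway lists, of which 1 gene is not reported here. The biological replicates have separate biosample records, per the labels. Alternatives were other window widths, stronger peaks only, equal list lengths, hotspots, single starts, closest genes, autosomes, unique promoters and each replicate alone.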

Additional observations from a re-analysis of the deposited data

How the results depend on the processing

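Receptor genes had the higher share with a promoter peak in both lists in 13 of 13 settings, the main one included. They also had the higher median number of peaks nearby in 7 of 7 settings in each list, again with the main one. Their median promoter score was the higher in 2 of 2 settings in the replicate 1 list but in 1 of 2 in the replicate 2 list, where the strongest peak gave 53 for ligands and 48 for receptors and the peak nearest to a start gave 38 and 43. With the higher-scoring 50% of each list, ligand genes with a promoter peak in both lists numbered 7 in place of 12. With a replicate left out the counts ranged from 12 to 20 for ligands and from 19 to 29 for receptors. Without replicate 1 the counts had to repeat the main ones, since all members with a replicate 2 promoter peak also had a replicate 1 peak. Limited to the main start, an alternative chosen after seeing the data, they were 9 of 46 and 15 of 43. Median peak numbers in the replicate 1 list, given for ligands and then receptors against 26 and 33, were 7 and 15 within 10 kb, 43.5 and 57 within 100 kb, 13 and 17 for the higher-scoring 50%, and 8.5 and 11 for lists of equal length. In the replicate 2 list, against 7.5 and 11, they were 3 and 4 within 10 kb, 15.5 and 18 within 100 kb, and 4 and 6 for the higher-scoring 50%. Lists of equal length leave the replicate 2 list whole, so that setting repeats its main medians. For receptors alone, counting around starts only gave 28 and 9, and leaving promoter peaks out gave 30 and 8, in the replicate 1 and replicate 2 lists. These shifts follow from wider, narrower or shorter sets of peaks. The other 31 values moved by less than their limits. No paired analysis was possible because the result comes from no test and the replicates share no number across groups. Read depth is unknown, so a missing peak in the shorter replicate 2 list may be a site that did not reach the caller's limit.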
